A study of Mus musculus with 6 samples.

Results

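The genes described here are the 10 Frizzled receptor genes of the mouse, Fzd1 to Fzd10, taken by symbol from the 53801 genes counted in each library. The family was chosen by the reads of 1 of its members: Fzd6 was low in 2 of the 3 tumours of the treated group, so its difference between the groups is given as a description, with no test. The libraries are RNA-seq of tumour pieces from 6 tumours of wild-type C57BL/6 mice, males of 10 to 12 weeks, that carried subcutaneous tumours of B16-F10, a mouse skin melanoma cell line. In 3 tumours the cells had been primed with sevoflurane, an inhaled anaesthetic, before they were injected (SEVO), in a chamber flushed with 2% of the gas for 30 min and then closed for another 2 h. The other 3 tumours came from unprimed cells (CTRL), and the animals of both groups were awake. The comparison asks whether priming of the cells left a trace in the RNA of the tumour that grew from them.

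Frizzled proteins are membrane receptors for WNT ligands, secreted lipid-modified proteins that are held by a cysteine-rich domain on the outside of the cell. Together with the co-receptors LRP5 and LRP6 they engage Dishevelled proteins, which stops the destruction of β-catenin and lets it act with TCF and LEF factors on target genes. Without β-catenin, Frizzled receptors also take part in planar cell polarity, the alignment of cells within a sheet of tissue. Fzd6 belongs with Fzd3 to the branch best known for this second role, and mice without Fzd6 have whorls in the pattern of their hair.

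Few reads were counted on genes, and the counts differed in kind between the tumours, which bears on every value below. Between 27930688 and 41026677 uniquely aligned reads per tumour were assigned to no gene. The files held 723431 to 1348676 counted reads per tumour, 2.06% to 4.61% of the uniquely aligned reads, and the genes Gm10800 and Gm10801 alone took 1.31% (CTRL 2) to 49.0% (CTRL 1) of them. As a measure of background, the 1460 protein-coding olfactory and vomeronasal receptor genes, which are normally silent outside sensory neurons, had 1.30, 0.0755 and 0.588 reads per kilobase of exon in CTRL 1 to 3, and 0.184, 0.210 and 0.396 in SEVO 1 to 3. CTRL 1 stood highest and CTRL 2 lowest, both within the same group. The labels name monocytes as the cell type and tumour as the source. All 9 melanocyte markers lay above the silent density in every tumour, with summed levels of 363 to 381 RPKM (counts per kilobase of exon, scaled to the size of each library) in CTRL and 182 to 492 in SEVO. This held for 2 of 11 monocyte and macrophage markers, Csf1r and Cd68, with sums of 46.8 to 57.7 in CTRL and 50.8 to 69.0 in SEVO, while C1qa and C1qb had 0 to 3 reads per tumour. Of the other lists, 3 of 5 erythroid, 2 of 5 endothelial, 2 of 8 T and NK cell and 1 of 7 fibroblast markers did so. Among the neutrophil, keratinocyte and skeletal muscle markers 0 did. The erythroid sums were 80.7 to 225 RPKM in CTRL and 120 to 187 in SEVO. The libraries are therefore treated as whole tumour tissue, in which fewer cells of a type and less RNA per cell cannot be told apart.

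The strand of the reads sets a further limit on what a count stands for. Gapdh, an abundant glycolytic enzyme gene, had 17 to 42 reads per tumour, and the ribosomal protein gene Rpl3 had 12 to 22. Ctnnb1, which encodes β-catenin, had 39 to 93 reads, while Ulk4, whose exons lie opposite those of Ctnnb1 over 759 bases, had 4144 to 11030. Of the 50 nuclear genes with the most reads, 44 had exon bases opposite another gene, against 20.5% of the 42329 named nuclear genes with at least 1 read. The strand setting of the counting is not given in the sources used here. Reads from a Frizzled transcript and from RNA of the opposite strand therefore cannot be told apart, and the values below are read densities on these genes rather than amounts of receptor mRNA.

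The members are close relatives, and the stretches that their coding sequences share show how far a read could fit more than 1 of them. No stretch of 50 bases was identical between any pair of the 10 coding sequences. The longest identical stretches joined Fzd1, Fzd2 and Fzd7, and these are printed 5′ to 3′ in the direction of the genes from GRCm38, entirely in lower case because every base is shared. The first lies at chr5:4756331-4756377 (minus strand) and chr11:102605740-102605786 (plus strand), the next at chr5:4756964-4757010 (minus strand) and chr1:59483344-59483390 (plus strand), and the last at chr11:102606064-102606101 and chr1:59484298-59484335 (both plus strand).
Fzd1 and Fzd2, 47 bases: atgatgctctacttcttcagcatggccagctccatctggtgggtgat
Fzd1 and Fzd7, 47 bases: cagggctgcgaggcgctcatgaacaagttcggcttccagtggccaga
Fzd2 and Fzd7, 38 bases: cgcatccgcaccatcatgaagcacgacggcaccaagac
Fzd6 shared at most 20 bases with any other member, with Fzd3 at chr15:39033934-39033953 (plus strand) and chr14:65212120-65212139 (minus strand), and this stretch is shown because Fzd6 had the most reads.
Fzd3 and Fzd6, 20 bases: tgggttggaagcaaaaagac
Only uniquely aligned reads were counted, so a read wholly within such a stretch would be missing from these counts. Only reads no longer than the stretch could be lost in this way. The exon bases outside the coding sequences were not compared.

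Promoters from 250 bases before to 50 bases after the start of the gene were at hand for 6 of the 10 genes, from RefSeq on GRCm38.p6: Fzd1, Fzd4, Fzd5, Fzd7, Fzd9 and Fzd10. These starts are those of RefSeq, and the windows of Fzd1 and Fzd7 lie wholly upstream of the GENCODE bounds of these genes. The window of Fzd10 lies wholly within the GENCODE bounds of its gene. They were rich in CG pairs, from 16 in Fzd1 to 53 in Fzd9, against a median of 7 in 32851 mouse promoters. The core of the TCF/LEF motif was searched as CTTTG or its reverse complement CAAAG and was found in 53.9% of all promoters, in 1 place for Fzd7 and Fzd10, in 2 for Fzd1 and in none for the other 3. The promoters of Fzd7, the gene with the steadiest reads, and Fzd4, whose groups did not overlap, are shown because the results below turn on both, with the motif in capitals. They lie at chr1:59481897-59482196 and chr7:89404116-89404415, both on the plus strand.
Fzd7: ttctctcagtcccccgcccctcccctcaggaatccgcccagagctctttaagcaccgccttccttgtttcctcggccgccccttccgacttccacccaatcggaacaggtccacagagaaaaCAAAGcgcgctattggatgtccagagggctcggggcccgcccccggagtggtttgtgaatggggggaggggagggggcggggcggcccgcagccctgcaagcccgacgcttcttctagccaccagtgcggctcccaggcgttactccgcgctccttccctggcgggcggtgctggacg
Fzd4: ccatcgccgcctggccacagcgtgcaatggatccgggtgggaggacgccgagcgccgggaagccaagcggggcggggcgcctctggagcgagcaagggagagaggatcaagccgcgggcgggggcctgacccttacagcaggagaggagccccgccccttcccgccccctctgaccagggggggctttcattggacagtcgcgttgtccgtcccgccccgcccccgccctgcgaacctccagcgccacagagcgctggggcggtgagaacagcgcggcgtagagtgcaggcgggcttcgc

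Fzd6 carried most of the Frizzled reads, 576 over the 6 tumours against 1 to 89 for the other members. The gene (ENSMUSG00000022297.15) lies on the plus strand at chr15:39006034-39038188 and has 4818 exon bases in 9 exons. It had 102, 54 and 282 reads in CTRL 1 to 3, and 120, 8 and 10 reads in SEVO 1 to 3. In CPM, which scales each library to the same size, here by TMM (a trimmed mean of ratios between libraries), this was 124, 67.7 and 324 in CTRL and 138, 8.58 and 10.9 in SEVO. The groups overlapped, because SEVO 1 lay above CTRL 1 and CTRL 2, while SEVO 2 and SEVO 3 lay below every other tumour. The means were 172 ± 134 CPM in CTRL and 52.5 ± 74.1 in SEVO (SD, n = 3 each), a fitted log2 fold change of -1.72 that describes how the gene was chosen. It was -4.05 without SEVO 1 and -0.79 without CTRL 3, so 1 tumour moved its size by more than 1.5 times in either direction. It was also smaller, at -1.10, when no filter on low counts was applied.

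The spread of Fzd6 over the tumours was wide for these libraries. Its highest CPM was 37.7 times its lowest, and its SD on the log2 scale over all 6 tumours was 1.97, against a median of 0.53 over the 7561 genes that passed the filter on low counts. A larger SD was found for 0.185% of these genes. Fzd6 was chosen for its low reads in 2 tumours, so its wide spread follows from the choice and is no test. The share of Frizzled reads that fell on Fzd6 was 45.5%, 79.4% and 82.7% in CTRL and 82.2%, 22.2% and 14.7% in SEVO. SEVO 1 thus resembled CTRL 2 and CTRL 3 in this share, and the sum of the other 9 receptors was not low in SEVO 2 and SEVO 3, with 28 and 58 reads there against 14 to 122 in the other 4 tumours, although Fzd4 among them had only 3 and 2.

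**Figure D1:**
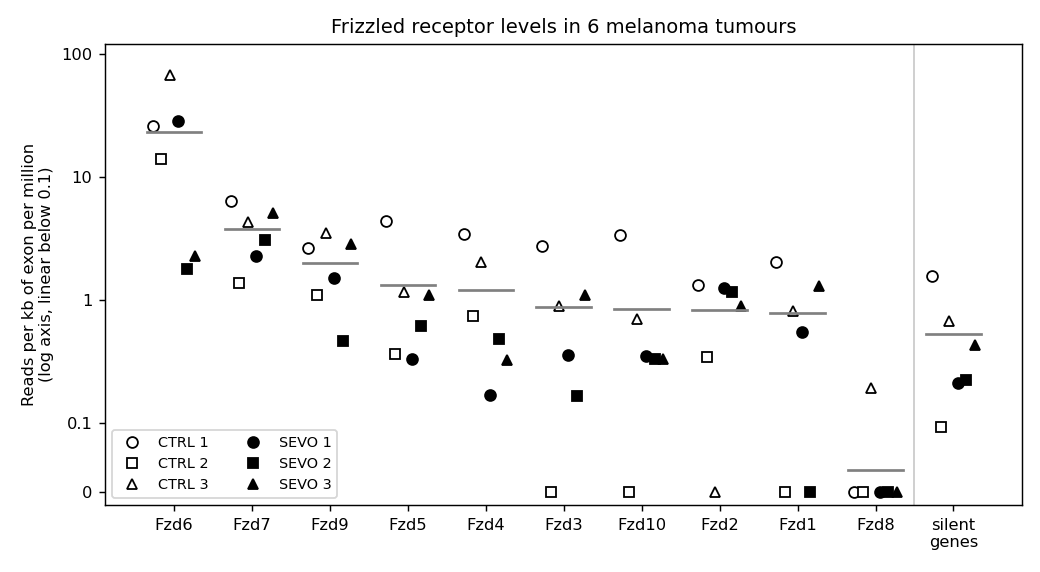
Read density (RPKM, on a log axis that is linear below 0.1) of each Frizzled gene and of the mean silent gene, with 1 point per tumour (open symbols CTRL, filled symbols SEVO, shape for the tumour number) and a grey line at the mean of the 6 tumours. Fzd6 spans 1.78 to 67.2 RPKM with SEVO 2 and SEVO 3 at the bottom, and CTRL 1 is the highest point of most other genes and of the silent genes.

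Genes near Fzd6 on chromosome 15 did not have its pattern. Atp6v1c1, a subunit gene of the vacuolar proton pump, had 31, 7 and 16 reads in CTRL and 3, 3 and 11 in SEVO. Slc25a32, a mitochondrial folate carrier gene, had 9, 1 and 5 reads in CTRL and 1, 3 and 4 in SEVO. Both were highest in CTRL 1, where the background was highest, whereas Fzd6 was highest in CTRL 3. The noncoding gene Gm26704 lies on the opposite strand at chr15:39003285-39006185 and overlaps 152 exon bases of Fzd6. It had 16, 0 and 1 reads in CTRL and 5, 3 and 5 in SEVO, so CTRL 3, the highest tumour of Fzd6, was near the bottom for Gm26704, while SEVO 1 was second in both, for Gm26704 with as many reads as SEVO 3.

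**Figure D2:**
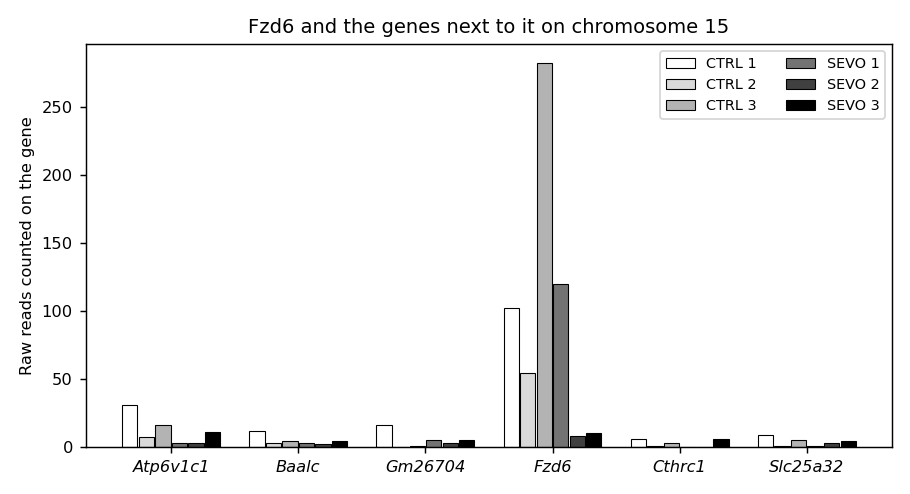
Raw reads per tumour (bars, CTRL 1 to 3 and SEVO 1 to 3 from white to black) on Fzd6 and on 5 genes near it on chromosome 15, in their order along the chromosome. Fzd6 varies from 8 to 282 reads, while Atp6v1c1 varies from 3 to 31 and Slc25a32 from 1 to 9.

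Set against the density of the silent genes, 4 of the 10 receptors lay above background in every tumour: Fzd6, Fzd7, Fzd9 and Fzd5. The same held for 46 of the 93 WNT pathway genes described below, so this does not set the receptors apart. Fzd6 was 5.24 to 149 times the silent density, Fzd7 4.09 to 14.6 times, Fzd9 1.68 to 11.6 times and Fzd5 1.57 to 3.83 times. In its lowest tumour by this measure, SEVO 3, 2.40% of the silent genes were still at least as dense as Fzd6. For Fzd9 this share reached 20.7% and for Fzd5 26.1% in 1 tumour, so single silent genes were often as dense as these receptors. Fzd1, Fzd2, Fzd3, Fzd4 and Fzd10 each exceeded the silent density in 4 of 6 tumours, with 1.47 to 2.22 times as many reads in all as that density would give. Fzd8 had 1 read, against 16.4 at the silent density. The 9 receptors other than Fzd6 had 122, 14 and 59 reads together in CTRL and 26, 28 and 58 in SEVO, and CTRL 1, with the highest background, had the most reads for 7 of the 9, in a tie with SEVO 1 and SEVO 2 for Fzd2. Their sum was 1.87 to 3.69 times what the silent density of each tumour would give, and the part of this background in their differences between tumours was not tested.

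**Figure D3:**
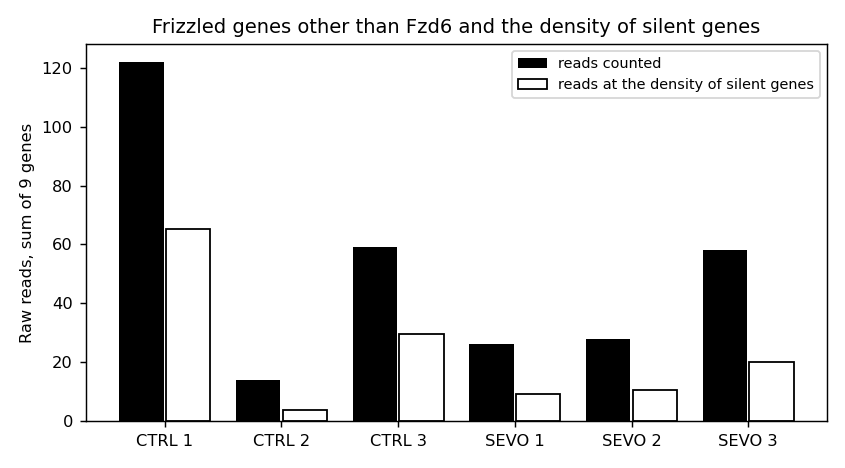
Raw reads of the 9 Frizzled genes other than Fzd6, summed per tumour (black bars), beside the reads that the density of the silent genes in the same tumour would give over the same exon length (white bars). The black bars are above the white in all 6 tumours, and both are highest in CTRL 1 and lowest in CTRL 2.

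In order of read density per exon length, Fzd6 came first at 23.3 ± 24.3 RPKM (SD, n = 6) and Fzd7 second at 3.76 ± 1.86. Fzd9 followed at 2.01 ± 1.17 and Fzd5 at 1.33 ± 1.54. Then came Fzd4 at 1.20 ± 1.29, Fzd3 at 0.880 ± 1.01, Fzd10 at 0.848 ± 1.25, Fzd2 at 0.831 ± 0.543, Fzd1 at 0.782 ± 0.786 and Fzd8 at 0.0320 ± 0.0784. No neighbours in this order differed by more than the larger of their SDs. Tumour by tumour, Fzd6 lay above Fzd7 in 4 of 6, with SEVO 2 and SEVO 3 the exceptions, and Fzd7 lay above Fzd9 in 6 of 6. Among 21967 protein-coding genes, 3.53% had a higher mean density than Fzd6, 16.0% than Fzd7, 29.8% than Fzd9 and 46.4% than Fzd5. Ranked by CPM, which does not allow for exon length, the long gene Fzd3 moved from rank 6 to rank 3 and the short gene Fzd9 from rank 3 to rank 6.

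Fzd7, a receptor of embryonic and intestinal stem cells, was the only other member that passed the filter on low counts, which left 2 of the 10 for the test across genes. It lies in 1 exon of 4532 bases at chr1:59482424-59486955 on the plus strand. It had 24, 5 and 17 reads in CTRL and 9, 13 and 21 in SEVO. CTRL 1 was its highest tumour and CTRL 2 its lowest, so the groups overlapped. The means were 18.3 ± 11.5 CPM in CTRL and 15.7 ± 6.46 in SEVO (SD, n = 3 each), with a log2 fold change of -0.22 (SE, the standard error of the fit, 0.62, edgeR adjusted p = 0.894). The direction was not settled by these libraries, since the log2 fold change was 0.16 with scaling by library size only and 0.28 without CTRL 1. At the thresholds of the study (unadjusted p under 0.02 and a fold change of at least 1.5), 0 of the receptors other than Fzd6 were called, against 1.04% of the 7561 genes tested, and with adjusted p under 0.05 edgeR and DESeq2 called 0 of all genes. At unadjusted p under 0.05, edgeR had 330 genes (4.36%) and DESeq2 265. These p-values set the difference between the groups against the spread of tumours within the groups.

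Fzd4, the receptor for norrin in the blood vessels of the retina, was the only member whose groups did not overlap, at few reads. It has 6720 exon bases in 2 exons at chr7:89404355-89413134 on the plus strand. It had 19, 4 and 12 reads in CTRL and 1, 3 and 2 in SEVO. The groups did not overlap, with SEVO lower, as for 4.39% of all tested genes, but CTRL 2 with 4 reads and SEVO 2 with 3 were 1 read apart. The means were 14.0 ± 9.03 CPM in CTRL and 2.18 ± 1.03 in SEVO (SD, n = 3 each), with p = 0.1 by the two-sided exact permutation test, the smallest that 3 against 3 tumours allow. Without the filter on low counts edgeR gave a log2 fold change of -1.96 (SE 0.89, adjusted p = 0.793), where the median of all genes was -0.38. Without CTRL 2, the tumour with the lowest background, it was -2.84 and past the thresholds of the study, with an adjusted p of 0.0867 in edgeR, in a setting where 16.2% of all 8961 genes tested passed those thresholds. Among the 18096 genes with 10 to 100 reads in all, the groups did not overlap for 8.11%, with SEVO lower for 7.15%, and Fzd4 was 1 of 8 receptors in this range.

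Fzd3 and Fzd5 had more reads in CTRL 1 than in any other tumour. Fzd3, the relative of Fzd6 that guides growing axons, had 29, 0 and 10 reads in CTRL and 4, 2 and 13 in SEVO over 12804 exon bases at chr14:65192449-65262463 (minus strand). Its means were 15.6 ± 18.0 CPM and 6.97 ± 6.36 (SD, n = 3 each), and the two-sided exact permutation test gave p = 0.7. Fzd5, which acts in the eye and in Paneth cells of the gut, had 25, 2 and 7 reads in CTRL and 2, 4 and 7 in SEVO over 6915 exon bases at chr1:64730558-64737751 (minus strand). Neither gene separated the groups, since CTRL 2 had 0 and 2 reads of them. For Fzd5 the means were 13.6 ± 14.7 and 4.74 ± 2.70 CPM (SD, n = 3 each), with p = 0.4 by the same exact test. The noncoding gene Gm38058 covers 1233 exon bases of Fzd5 on the opposite strand and had 15 to 28 reads per tumour, more than Fzd5 itself in each.

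Fzd9, known from bone and hippocampus, had 5, 2 and 7 reads in CTRL and 3, 1 and 6 in SEVO. It is a short gene of 1 exon, 2293 bases at chr5:135248938-135251230 (minus strand), and is at rank 3 by density with these few reads. Its means were 5.54 ± 2.80 CPM in CTRL and 3.69 ± 2.74 in SEVO (SD, n = 3 each; two-sided exact permutation p = 0.5). The groups overlapped, with the lowest and highest tumours 1 read apart between them. Fzd1 and Fzd2, which act together in closure of the palate, were at or near the floor. Fzd1, on chromosome 5, had 7, 0 and 3 reads in CTRL and 2, 0 and 5 in SEVO (exact permutation p = 0.7). Fzd2, on chromosome 11, had 4, 1 and 0 reads in CTRL and 4, 4 and 3 in SEVO (exact permutation p = 0.4), the only receptor with a higher SEVO mean under TMM scaling. In CPM this was 2.04 ± 2.52 and 4.05 ± 0.695 (SD, n = 3 each), where 1 read was worth 1.07 to 1.25 CPM.

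Fzd10 and Fzd8 were at the limit of what the counted reads could show. Fzd10, on chromosome 5, had 9, 0 and 2 reads in CTRL and 1 read in each SEVO tumour (exact permutation p = 0.4). Fzd8, on chromosome 18, had 1 read in CTRL 3 and 0 in the other 5 tumours. A count of 0 allows up to 3 reads, which is 3.22 to 3.76 CPM depending on the tumour and covers counting error only. Fzd8 was thus not detectable at this number of counted reads in 5 tumours, and Fzd10 in CTRL 2, rather than shown to be absent.

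The members varied together only in part. Over the 6 tumours, Pearson's r of log2 CPM between Fzd6 and each of the other 9 ran from -0.473 to 0.591, with a median of 0.30. Among the 36 pairs without Fzd6 it ran from -0.831 to 0.963, with a median of 0.53. These are descriptions over 6 libraries, in which most pairs share low counts and the same differences in background. Of 7560 other tested genes compared with Fzd6, 13 had r of at least 0.9. The genes named next head this ranking, which is no test. Among the 5 tested genes most like Fzd6 by this measure were Trp53inp1, a stress-induced regulator of autophagy, with r = 0.980, the zinc transporter gene Slc30a2 with 0.949, Akirin2, a nuclear factor, with 0.948, and the scaffold gene Magi3 with 0.930. Their patterns were far flatter, with 12, 9 and 18 reads in CTRL and 12, 7 and 6 in SEVO for Trp53inp1. For Magi3 they were 58, 57 and 64 reads in CTRL and 61, 58 and 54 in SEVO. The highest CPM was 1.25 to 3.16 times the lowest in these 4 genes, against 37.7 times for Fzd6. With Spearman's coefficient only 1 of the 5 stayed among the most alike.

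Around the receptors, 93 genes of the WNT pathway were examined in lists by role, and 28 of them passed the filter on low counts. None was called in either direction at the thresholds of the study, beside 0.939% of all tested genes lower and 0.106% higher in SEVO. Without CTRL 2, 36 pathway genes passed the filter and 10 were called (9 of them lower), 7 of these among the 28, beside 16.2% of all genes. Without SEVO 3, 3 of 35 were called, beside 5.71% of all genes. The log2 fold change was below 0 for 23 of the 28, with a median of -0.37, beside 51.1% of all tested genes and a median of -0.02. This lean depended on the scaling, on the treatment of background and on single tumours. It was 14 of 28 with library size only, where the median of all genes rose to 0.22, 16 of 28 with the silent density as a covariate, 13 of 28 without the filter and 14 of 28 in DESeq2. With 1 tumour left out the lean was 18 of 28 (without CTRL 3) to 22 of 28 (without CTRL 2). The median of the 28 then ran from -0.63 (without CTRL 2) to -0.10 (without CTRL 1). Of the 28, 0 had groups that did not overlap, beside 8.56% of all tested genes. Below the filter, the groups did not overlap for Wnt8b, Ptk7, Kremen2 and Celsr2, each with SEVO lower and 11 to 51 reads in all. Such groups, with SEVO lower, were found for 7.15% of all genes with 10 to 100 reads.

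Among the ligands, Wnt2b was the single member of 19 that passed the filter. It had 48, 53 and 54 reads in CTRL and 64, 55 and 45 in SEVO, a mean of 14.6 RPKM, with a log2 fold change of -0.04 (SE 0.31). The groups overlapped and were close throughout. Wnt4 and Wnt9b came next with 2.61 and 1.69 RPKM. Of the 3 genes of ligand release, Wls, the carrier that brings WNT proteins to the cell surface, had 25, 3 and 25 reads in CTRL and 1, 2 and 16 in SEVO, a log2 difference of -1.58 (SE 0.92), and the groups overlapped. Notum, which removes the lipid from WNT proteins, and Porcn, which adds it, had 1.12 and 0.848 RPKM. The ligands of other kinds, Rspo2, Rspo3 and Rspo1, lay at 1.38, 0.883 and 0.807 RPKM, and 0 of the 5 genes of this list passed the filter.

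Of the 9 co-receptors, 3 passed the filter, and 0 were called. Lrp6 had 69, 28 and 44 reads in CTRL and 11, 14 and 48 in SEVO, with a log2 fold change of -1.08 (SE 0.53, edgeR adjusted p = 0.741). SEVO 3 lay within the range of CTRL, and CTRL 1 was the highest tumour, as it was for most Frizzled genes. Lrp5 had 42, 10 and 16 reads in CTRL and 13, 12 and 14 in SEVO, with -0.92 (SE 0.57). Adgra2, a co-receptor of brain vessels, had the highest density of the list at 6.38 RPKM and a log2 fold change of 0.26 (SE 0.37). Among the genes of receptor turnover, Znrf3, a ubiquitin ligase that removes Frizzled proteins from the membrane, had a log2 fold change of -0.94 (SE 0.87), and Lgr4, Lgr6 and Rnf43 had 1.60, 1.46 and 1.29 RPKM. Of the secreted antagonists, Dkk3 had 10, 15 and 22 reads in CTRL and 6, 8 and 13 in SEVO, with a log2 fold change of -0.91 (SE 0.59). Kremen1, a receptor for DKK proteins, had -0.24, and Dkk4 had 2.57 RPKM.

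The transducers held the highest counts of the pathway, and these include genes that lie opposite others. Dvl2, a Dishevelled gene, had 211, 584 and 305 reads in CTRL and 543, 432 and 507 in SEVO, with 1151 of its 6298 exon bases opposite Acadvl. Gsk3a, a kinase of the β-catenin destruction complex, had 50, 114 and 67 reads in CTRL and 98, 131 and 77 in SEVO, with 820 of its 2900 exon bases opposite 9130221H12Rik. Their log2 fold changes were 0.29 and 0.27, and CTRL 1, highest for most Frizzled genes, was the lowest tumour for both. Ctnnb1 had a log2 fold change of -0.19 and Tcf7l2, a partner of β-catenin on DNA, of -1.40 (SE 0.68). Csnk1e, a casein kinase gene of the pathway, had -1.13 (SE 0.68). Of the target genes, Ccnd1, a G1 cyclin gene, had 34, 38 and 48 reads in CTRL and 43, 46 and 45 in SEVO. Its log2 fold change was 0.04, and 1100 of its 4709 exon bases lie opposite LTO1. Axin2, the target most often used as a readout of β-catenin activity, had 10, 3 and 9 reads in CTRL and 3, 4 and 3 in SEVO, and was too low for the test. Nkd2 had a log2 fold change of 0.19 and Myc 2.71 RPKM.

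The planar polarity genes, which share a role with Fzd3 and Fzd6, had log2 fold changes below 0 for all 6 tested of 11, with a median of -0.68, and 0 were called. This held for 3 of the 6 with library size only, in DESeq2 and with the background covariate. It also held for 3 of the 6 without CTRL 1, and for 4 or 5 without any other single tumour. Celsr3, an adhesion receptor of this system, had 60, 16 and 30 reads in CTRL and 11, 20 and 23 in SEVO, with a log2 fold change of -1.10 (SE 0.50, edgeR adjusted p = 0.741), and the groups overlapped. Scrib, a cell polarity scaffold, had -1.15, while Prickle1 had 4.09 RPKM and a log2 fold change of -0.04. Daam2 had 2.90 RPKM. Smo, a member of the Hedgehog pathway related to the Frizzled family, had a log2 fold change of -0.31.

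**Figure D4:**
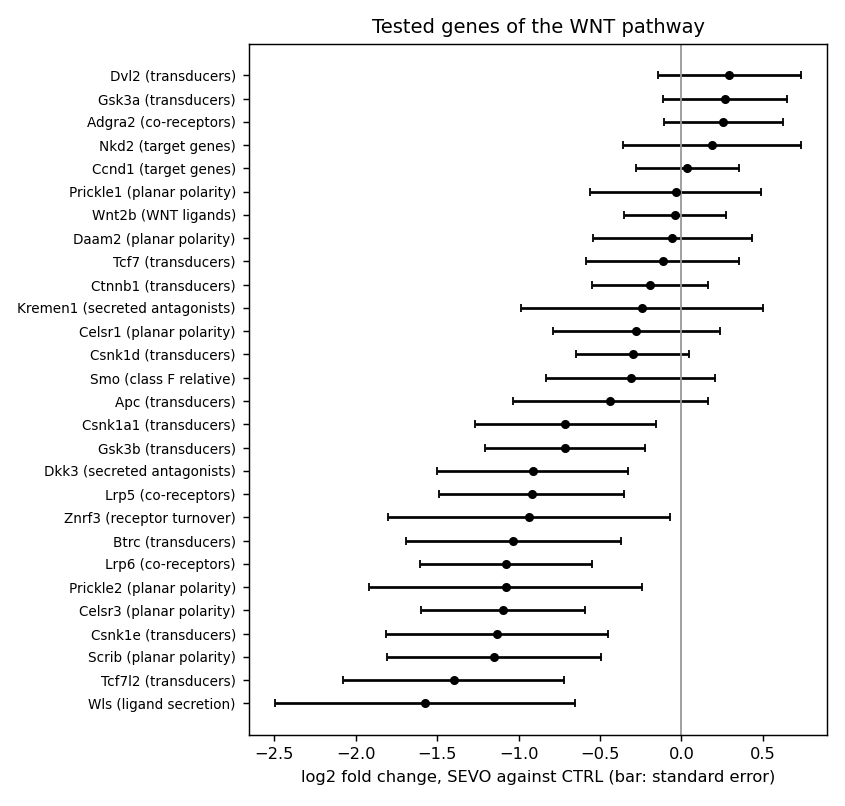
Log2 fold changes, SEVO against CTRL, of the 28 WNT pathway genes that passed the filter on low counts, sorted by value, with the list of each gene in brackets, bars of 1 standard error and a line at 0. Under TMM scaling 23 of the 28 points lie below 0, and 14 do so with scaling by library size only.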

How the data were processed

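RNA of tumour pieces was sequenced on an Illumina HiSeq instrument with all libraries prepared and run together. The authors removed ribosomal reads with SortMeRNA, trimmed with Trimmomatic 0.36, aligned with STAR 2.6.0c to GRCm38.p6 and counted unique reads per GENCODE M17 gene with HTSeq 0.9.1 (versions from the submitters' processing notes). The authors deposited these raw counts without normalization, and the rows of HTSeq for reads not counted were left out of library sizes and tests. Gene names, positions and exon lengths came from GENCODE M21, also GRCm38, which matched 53706 of 53801 identifiers.

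The 3 SEVO tumours were compared with the 3 CTRL tumours in edgeR 4.0.16 (R 4.3.3): TMM scaling, filterByExpr, quasi-likelihood test, Benjamini-Hochberg adjustment over 7561 genes. DESeq2 1.42.0, which the authors used, was an alternative. The main test differs from theirs, and their thresholds were used. Receptors under the filter were compared by exact permutation over the 20 splits of 6 tumours. CPM and RPKM used the TMM-scaled library sizes, and log2 CPM for correlations a prior count of 2. The fits were tested on simulated data. Alternatives changed the scaling, the filter, the test, the background covariate, the replicate block or left out a tumour.

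The members and lists were chosen with earlier results of these data known. Genes were named by rule: all Frizzled genes, in each pathway list up to 3 of the densest and the 2 tested with the lowest p, those past the thresholds, and the 5 most like Fzd6 by Pearson's r, of which 1 is not reported here. Axin2, neighbours of Fzd6, genes of the strand check and genes opposite a member were added after their values were seen. So were the pathway genes below the filter whose groups did not overlap. Tumours of a group differed beyond sampling noise (chi-squared per gene 4.35 to 51.6), so each counts as 1 sample.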

Additional observations from a re-analysis of the deposited data

How the results depend on the processing

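At adjusted p under 0.05 the count of genes stayed at 0 under the other scalings, filters, the covariate and DESeq2, and was 0 to 31 with 1 tumour left out (31 without CTRL 2). At the thresholds of the study it was 79 (8 higher, 71 lower in SEVO), 60 with library size only (24 higher, 36 lower), 266 without a filter (100 and 166), 49 in DESeq2 (26 and 23), 130 with the background covariate (48 and 82), and 13 to 1449 with 1 tumour left out (13 without SEVO 1, 14 without SEVO 2, 28 without CTRL 1, 32 without CTRL 3, 479 without SEVO 3 and 1449 without CTRL 2). Receptors other than Fzd6 were 0 in all settings except 1, Fzd4, without CTRL 2, a range of 0 to 1. Only 1 of these 9 receptors, Fzd7, was in the main test. With at least 10 reads in every tumour none of them could be called, since even Fzd7 had 5 reads in CTRL 2. WNT pathway genes were 0 to 10 with 1 tumour left out, with 10 without CTRL 2 and 3 without SEVO 3 (Csnk1a1, Wls and Lrp6). The cause of these shifts was not tested.

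The log2 fold change of Fzd7, -0.22, became 0.16 with library size only, 0.38 without a filter, 0.21 in DESeq2 and 0.46 with the background covariate, and ran from -0.53 to 0.28 with 1 tumour left out (0.28 without CTRL 1 and 0.10 without SEVO 1). That of Fzd6, given as a description, ran from -4.05 to -0.79. Its sign follows from the choice of the gene by its reads and is no test. Fzd6 could not be fitted with at least 10 reads in every tumour. Ranked by CPM, Fzd10 moved from rank 7 to 9.

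Tumours carry the numbers 1 to 3 in each group, with nothing in the sources used here that ties equal numbers together. Same-numbered tumours deviated from their group means with r = -0.399, 0.320 and 0.0830, and not every tumour was most like its own number. With 3 tumours per group, these values cannot decide whether equal numbers mark a pairing. With the replicate block, 129 genes (1.71%) passed the thresholds of the study (6 higher, 123 lower), 1 of them a WNT pathway gene, Lrp6, and 1 gene had an adjusted p under 0.05. That gene is Fzd6, which was chosen by its reads in these tumours, so its p is no test of it.

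The small number of counted reads limits all of this: at 1.07 to 1.25 CPM per read, 8 of the 10 receptors were too low for the test across genes.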
